A study of Homo sapiens with 6 samples.

Results

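The transcripts described here encode the core protein machinery of pre-mRNA splicing and its best-known regulators. They are the 58 genes, of 15832 in the deposited table, whose symbols begin with SRSF (SR proteins, 12 genes), HNRNP (heterogeneous nuclear ribonucleoproteins, 23 genes), SF3A or SF3B (subunits of the U2 snRNP, 9 genes), SNRP (small nuclear ribonucleoprotein proteins, 12 genes) or U2AF (the U2 auxiliary factor, 2 genes), each followed only by the number or letters of its family member. They were chosen by name and not by a cut on their values, but with earlier results of these data known. Their RNA was measured in AsPC-1, an established human pancreatic cancer cell line, in 3 libraries from cells given an siRNA against VCPIP1 (siVCPIP1) and 3 libraries from cells given a control siRNA (siControl), all taken 48 h after transfection. VCPIP1 encodes a deubiquitinating enzyme, and the study's title links it to pancreatic cancer and Hippo/YAP signalling. How many siRNAs were used, and their sequences, is not stated in the labels, and all libraries are of 1 cell line. Nothing in the labels tells whether the 3 libraries of a group are separate cultures. A p-value here therefore only sets the difference between the groups against the scatter of the libraries, and that scatter may be technical.

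Introns are removed by the spliceosome, which assembles anew on each intron from small nuclear RNA and protein particles (snRNPs). The U1 snRNP marks the 5′ splice site, U2AF binds the 3′ splice site and its pyrimidine tract, and the U2 snRNP, with its SF3A and SF3B complexes, then engages the branch point. SR proteins bind exonic enhancers and mostly promote the use of nearby sites, whereas hnRNPs coat nascent RNA and often repress them. Many SR and hnRNP genes limit their own expression by splicing in exons that send the transcript to decay, which gene-level values cannot show.

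The values are in TPM, which divides a gene's reads by its transcript length and gives every library the same total, so they are shares of a library and the read depth is unknown. The targeted gene VCPIP1 had 0.12, 0.11 and 0.27 TPM in siVCPIP1 replicates 1, 2 and 3, against 2.93, 3.06 and 2.24 TPM in siControl replicates 1, 2 and 3, with a log2 fold change of -1.68 (limma, adjusted p = 2e-05) that became 0.27 after correction for GC content and length (adjusted p = 0.0651). At such low values the 1 TPM added before taking logarithms shrinks the change: siVCPIP1 held 6.08% of the siControl mean, and the log2 fold change was -3.45 with 0.1 TPM added. The whole distribution also differed between the groups. The median TPM over all listed genes was 1.24 to 2.26 in siVCPIP1 and 6.18 to 7.44 in siControl, and transcripts of less than 45% GC took up 3.75% to 5.95% of TPM in siVCPIP1 and 13.3% to 15.5% in siControl. Within siVCPIP1, replicate 3 stood apart, with a median of 2.26 TPM against 1.26 and 1.24 in replicates 1 and 2. The 7 epithelial markers summed to 20933 to 23734 TPM in siVCPIP1 and 13862 to 15982 TPM in siControl, nearly all of it from the keratins KRT8, KRT18 and KRT19. The epithelial adhesion genes EPCAM and CDH1 were at 2.99 to 11.7 TPM and 0.28 to 1.33 TPM in siVCPIP1, against 157 to 196 TPM and 27.5 to 31.7 TPM in siControl. The 5 fibroblast markers summed to 1.5 to 4.51 TPM in siVCPIP1 and 45.3 to 69.0 TPM in siControl, nearly all of it LUM, with COL1A2 and DCN at most at 0.08 TPM. Of 4 immune markers, 2 were listed, and CD68 made up nearly all of their sum of 121 to 158 TPM in siVCPIP1 and 143 to 148 TPM in siControl, with PTPRC at 0.66 TPM or less. The 2 listed of 5 acinar and islet markers and the 2 listed of 3 endothelial markers summed to at most 0.72 and 0.56 TPM in siVCPIP1 and 1.03 and 1.30 TPM in siControl. The part of these shifts in the differences between splicing genes was not tested.

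All 11 tested SR genes and all 21 tested hnRNP genes, which code for splicing regulators, were lower in siVCPIP1 (limma, adjusted p under 0.05). Over all tested genes 66.0% were lower and 15.0% higher. The median transcript GC content was 43.9% for the tested SR genes and 44.6% for the tested hnRNP genes. Of all tested genes from 40% to 45% GC, 97.0% were lower. Of the 20 tested SNRP and SF3 genes, which code for the core machinery, 15 were lower and 5 higher, shares near those of all genes, but median-of-ratios scaling put 13 higher and 4 lower, where 42.3% of all genes were higher and 42.7% lower. The summed TPM of each of these 2 families overlapped between the groups. SR transcripts summed to 273 ± 127 TPM in siVCPIP1 and 1093 ± 81.5 TPM in siControl (SD, n = 3 each), so that 25.0% of the siControl sum was left. For hnRNP transcripts the sums were 608 ± 362 TPM in siVCPIP1 and 3802 ± 274 TPM in siControl, and 16.0% was left. SNRP transcripts summed to 3889 ± 209 TPM in siVCPIP1 and 3759 ± 115 TPM in siControl, and the SF3 genes to 1288 ± 48.5 TPM in siVCPIP1 and 1353 ± 46.4 TPM in siControl. The make-up of the splicing transcripts therefore differed. SNRP genes supplied 57.2% to 65.6% of the summed TPM of all 58 genes in siVCPIP1 libraries, against 34.6% to 37.7% in siControl, and hnRNP genes 6.53% to 14.2% in siVCPIP1 against 35.4% to 38.2% in siControl. SNRPB, SNRPD2 and SNRPA alone made up 50.9% ± 5.93 in siVCPIP1 and 22.1% ± 2.17 in siControl (SD, n = 3 each). In bulk RNA, fewer cells and less RNA per cell cannot be told apart, and a share of TPM says nothing of the amount of RNA in a cell.

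**Figure D1:**
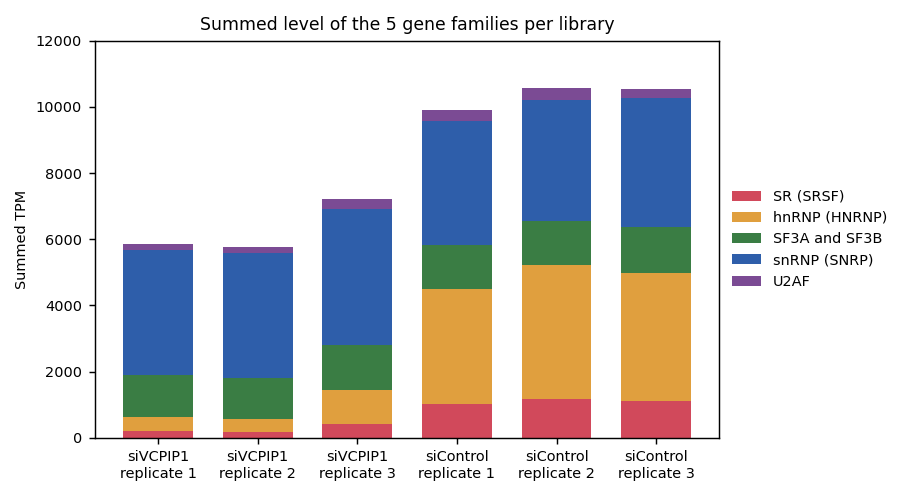
Summed TPM (vertical axis) of the SR, hnRNP, SF3, SNRP and U2AF genes in each siVCPIP1 and siControl library, stacked by family. The SNRP and SF3 segments have about the same height in all 6 libraries, and the SR and hnRNP segments are several times shorter in the siVCPIP1 libraries, of which replicate 3 keeps the most.

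Gene by gene, 54 of the 58 genes passed the filter of a mean of at least 1 TPM and were tested. Of these 54, 48 were lower in siVCPIP1, 5 were higher and 1 was not called (limma, adjusted p under 0.05 over all 10966 tested genes). These shares, 88.9% and 9.26%, stand beside 66.0% and 15.0% over all tested genes, and the median log2 fold change was -1.12 against -2.27 over the 54. In 47 of them every siVCPIP1 library lay below every siControl library, which was so for 67.9% of all tested genes. In 5 every siVCPIP1 library lay above, as did 18.2% of all. Of the 48 lower genes, 47 had their highest siVCPIP1 value in replicate 3, nearest to the siControl level, the exception being HNRNPH2. Of the 54, 38 had less than 50% of their siControl mean left and 10 less than 10%. The median share left was 20.9% over the 54 and 39.1% over all tested genes, so most genes of the table were also under 50%. How many of all genes were under 10% was not counted. Without siVCPIP1 replicate 3, 49 of the 54 were lower and 5 higher, with a median of -2.56 against -1.27 over all genes.

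All 11 tested SR genes fell, with a median log2 fold change of -2.86 and between 7.84% and 50.9% of the siControl mean left. The deepest falls were in SRSF7 and SRSF3, a pair of small SR proteins that also act in mRNA export and 3′ end choice. SRSF7 had 6.85, 7.26 and 40.7 TPM in siVCPIP1, against 167, 201 and 209.7 TPM in siControl, and its log2 fold change was -3.79 (SE 0.56, limma, adjusted p = 0.000237). SRSF3 had 3.75, 3.07 and 13.2 TPM in siVCPIP1, against 77.2, 94.3 and 84.2 TPM in siControl (log2 fold change -3.72, SE 0.42). In both genes replicate 3 of siVCPIP1 kept several times more than the other 2, yet stayed below all controls. SRSF11, the third of the deepest falls, had 2.11, 2.15 and 6.13 TPM in siVCPIP1 and 41, 48.8 and 30.1 TPM in siControl (-3.29).

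The prototype SR protein SRSF1, an oncoprotein that promotes exon inclusion, had 3.43, 3.6 and 8.17 TPM in siVCPIP1, against 39.4, 49.7 and 34 TPM in siControl, with a fold change of -2.86 on the log2 scale (SE 0.30, limma, adjusted p = 3.64e-05). Its closest relative SRSF9 was the most abundant SR transcript in both groups and fell least, with 131, 106 and 205 TPM in siVCPIP1 against 273, 291 and 304 TPM in siControl (-1.02, adjusted p = 0.00222). The TPM of SRSF9 was therefore 25.0 to 38.2 times that of SRSF1 in siVCPIP1 libraries, against 5.85 to 8.95 times in siControl. SRSF2, which has its RNA-binding domain at the N-terminus and a single RS domain, had 11.7, 11.1 and 40.4 TPM in siVCPIP1 and 122, 152 and 142 TPM in siControl (-2.90). Its intronless copy SRSF8 was the rarest tested SR gene, with 0.27, 0.49 and 1.61 TPM in siVCPIP1 against 7.72, 8.53 and 5.57 TPM in siControl (-2.26, or -3.33 with 0.1 in place of 1 TPM added before the logarithm).

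Among the remaining SR genes, SRSF4 and SRSF6, relatives with paired RNA recognition motifs, averaged 13 ± 9.07 TPM and 6.48 ± 2.37 TPM in siVCPIP1, against 80.0 ± 10.5 TPM and 30.4 ± 2.92 TPM in siControl (SD, n = 3). SRSF5, which belongs to the same subgroup, kept more of its level, with 41.4, 34.4 and 64.2 TPM in siVCPIP1 and 148, 159.9 and 147 TPM in siControl (-1.73). SRSF10, a splicing repressor when dephosphorylated, had 2.59, 2.64 and 6.39 TPM in siVCPIP1 and 34.3, 42.2 and 34.1 TPM in siControl (-3.04). In all 11 every siVCPIP1 library lay below every siControl library, as in 67.9% of all tested genes. The 12th gene, SRSF12, was not tested, since it stayed at 0.25 TPM or less in every library.

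All 21 tested hnRNP genes fell as well, with a median log2 fold change of -2.50, and between 4.29% and 32.0% of the siControl mean left. HNRNPA1 and HNRNPA2B1, paralogs that repress exons and are among the most abundant nuclear RNA-binding proteins, fell to different extents. HNRNPA2B1 had the lowest log2 fold change of the 54 genes with 1 TPM added, though not with 0.1 TPM added, where HNRNPR was lower (-4.66 for HNRNPA2B1 and -4.76 for HNRNPR). HNRNPA2B1 had 7.56, 8.26 and 30.9 TPM in siVCPIP1, against 328, 368 and 265 TPM in siControl (log2 fold change -4.55, SE 0.45, limma, adjusted p = 2.75e-05). HNRNPA1 had 95.2, 90.3 and 245 TPM in siVCPIP1, against 585, 718 and 761 TPM in siControl (-2.41, SE 0.34, adjusted p = 0.000194), and was the most abundant hnRNP transcript in every library. HNRNPA1 thus exceeded HNRNPA2B1 by 7.93 to 12.6 times in siVCPIP1 libraries, against 1.79 to 2.87 times in siControl.

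HNRNPR, a relative of SYNCRIP that binds mRNA in nucleus and cytoplasm, kept 4.29% of its siControl mean, the smallest share among the 54, with 2.07, 1.81 and 7.05 TPM in siVCPIP1 and 86.2, 103 and 65.7 TPM in siControl (-4.36, SE 0.39). HNRNPH1 and HNRNPF, which bind runs of G, were at a similar level in siControl and drew apart in siVCPIP1. HNRNPH1 had 6.23, 5.39 and 18.7 TPM in siVCPIP1 and 143, 171 and 139 TPM in siControl (-3.96), and HNRNPF had 16.5, 14.1 and 33.7 TPM in siVCPIP1 and 177, 205 and 170.3 TPM in siControl (-3.14). The ratio of HNRNPF to HNRNPH1 was 1.799 to 2.64 in siVCPIP1 libraries and 1.204 to 1.24 in siControl. HNRNPH2, an X-linked gene whose protein is nearly that of HNRNPH1, was the rarest tested hnRNP, listed at 0, 0.42 and 0.33 TPM in siVCPIP1 and 3.99, 6.66 and 1.02 TPM in siControl. It kept 6.43% of its siControl mean, and its log2 fold change of -1.78 with 1 TPM added was -3.48 with 0.1 TPM added.

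Other large falls were those of HNRNPA1L2, HNRNPM and HNRNPH3, at -3.78, -3.52 and -3.39, though reads of HNRNPA1L2 may have been split with HNRNPA1. HNRNPK, a poly(C)-binding protein that acts in transcription, splicing and translation, had 18.9, 18.2 and 46.9 TPM in siVCPIP1 against 246, 289 and 260.1 TPM in siControl (-3.33). HNRNPL, which binds CA repeats, had 50.2, 35.3 and 129 TPM in siVCPIP1 against 329, 353 and 376 TPM in siControl (-2.50). HNRNPC, which binds U-rich tracts and shields Alu elements from exon inclusion, had 58.8, 51.8 and 122 TPM in siVCPIP1 against 346, 407 and 424 TPM in siControl (-2.43). These abundant genes all fell several-fold, and in each of them replicate 3 of siVCPIP1 was more than 2 times as high as the lower of the other siVCPIP1 libraries.

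HNRNPUL1 and HNRNPUL2 kept the largest shares of the family, 32% and 24.5%. HNRNPUL1, a relative of HNRNPU with a part in DNA repair, had 37.4, 32.9 and 55.2 TPM in siVCPIP1, against 126, 147 and 119.7 TPM in siControl (-1.65, limma, adjusted p = 7.71e-05). HNRNPUL2 had a log2 fold change of -2.04. HNRNPU itself, a nuclear matrix protein that also binds chromatin, had 10.3, 10.9 and 17 TPM in siVCPIP1 and 61.2, 70.4 and 69.9 TPM in siControl (-2.34). The AU-rich element binding protein gene HNRNPD and its relative HNRNPDL averaged 13.9 ± 7.91 TPM and 10.4 ± 6.83 TPM in siVCPIP1, against 107 ± 10.1 TPM and 54.3 ± 3.38 TPM in siControl (SD, n = 3). The rest, HNRNPA3, HNRNPLL, HNRNPA0 and HNRNPAB, lay between -2.87 and -2.27 on the log2 scale. HNRNPCL1 and HNRNPCL4, copies of HNRNPC, were not tested, with at most 0.68 TPM in any library.

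**Figure D2:**
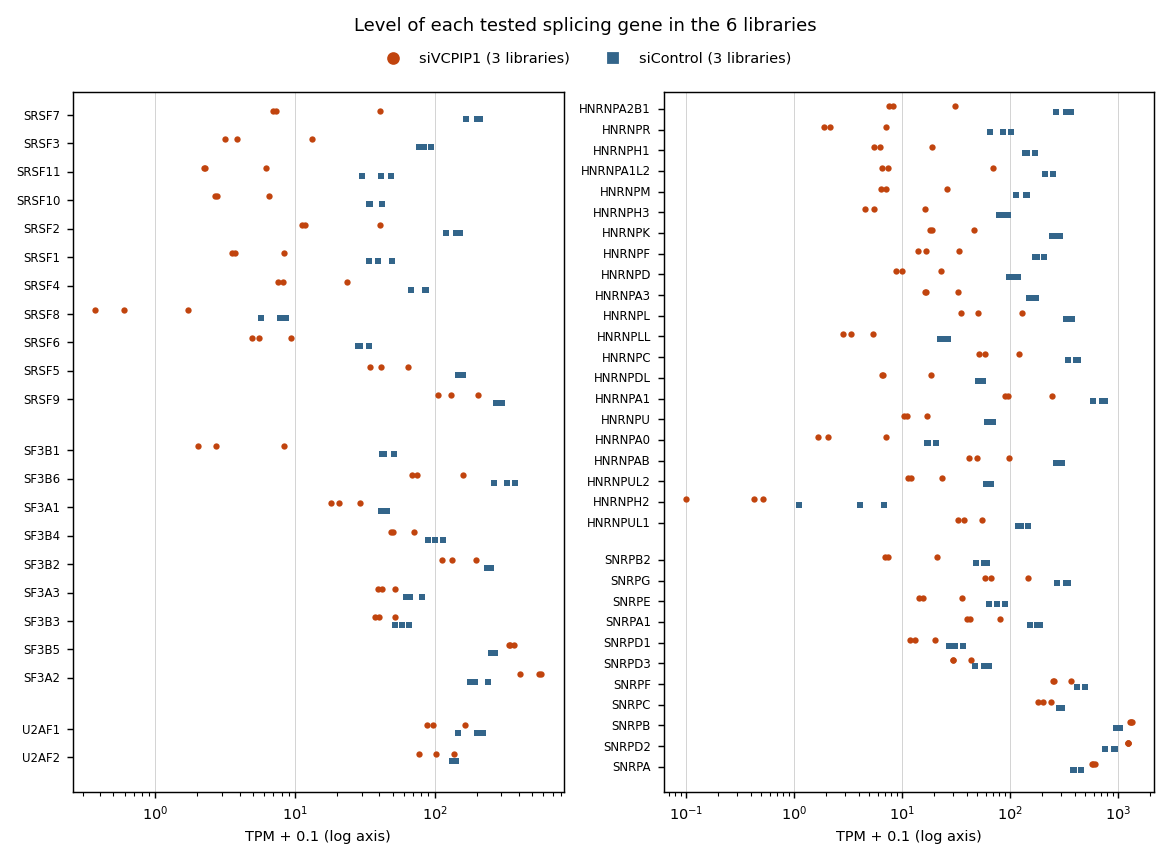
TPM plus 0.1 on a log axis for each of the 54 tested genes in every siVCPIP1 library (circles) and every siControl library (squares), grouped by family and ordered within it from the deepest fall. The circles lie left of the squares in all SR and hnRNP genes, right of them in SF3B5, SF3A2, SNRPB, SNRPD2 and SNRPA, and among them in U2AF1 and U2AF2, and the circle nearest to the squares is mostly that of replicate 3.

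In the U2AF pair, which recognises the 3′ splice site, the libraries of the groups overlapped. U2AF1, the small subunit that contacts the AG dinucleotide, had 97.2, 88.1 and 166 TPM in siVCPIP1, against 201, 222 and 146 TPM in siControl. Replicate 3 of siVCPIP1 exceeded replicate 3 of siControl, and the log2 fold change of -0.73 (limma, adjusted p = 0.0253) was not called in 4 of the 6 fits that left out 1 library, with adjusted p from 0.0711 to 0.09 without siVCPIP1 replicate 1 or 2 or siControl replicate 1 or 2. U2AF2, the large subunit that binds the pyrimidine tract, had 101, 76.7 and 138 TPM in siVCPIP1, against 142, 138 and 133 TPM in siControl, and was not called (-0.42, limma, adjusted p = 0.0782). Without siVCPIP1 replicate 3, U2AF2 was called lower (-0.64, adjusted p = 0.000121). The TPM of U2AF2 was 0.829 to 1.04 times that of U2AF1 in siVCPIP1 and 0.619 to 0.909 times in siControl, although the proteins work as a heterodimer.

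In the SF3 complexes, whose subunits bind the U2 snRNP, 7 of 9 genes fell and 2 rose, with a median log2 fold change of -0.76. Over all tested genes 66.0% fell and 15.0% rose. Once libraries were scaled by the median of ratios, 7 of the 9 were higher and 1 lower, against 42.3% and 42.7% of all genes. SF3B1, the subunit that holds the branch point and is mutated in several cancers, fell by far the most, with 2.6, 1.92 and 8.2 TPM in siVCPIP1, against 42.2, 51.3 and 43 TPM in siControl (log2 fold change -3.33, SE 0.39, limma, adjusted p = 5.91e-05). SF3B5, a small subunit of the same complex, rose, with 348, 339 and 368 TPM in siVCPIP1, against 270.3, 252 and 259.8 TPM in siControl (0.43, SE 0.11, adjusted p = 0.00551). The TPM of SF3B5 was 44.9 to 176 times that of SF3B1 in siVCPIP1 libraries, against 4.91 to 6.40 times in siControl. The subunits of 1 complex, present in equal number in the assembled particle, were thus spread over a much wider range of transcript levels.

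SF3A2, a subunit with a proline-rich C-terminus, showed the largest rise of the 54 genes. It had 562, 583 and 407 TPM in siVCPIP1, against 242, 179 and 194 TPM in siControl, 2.53 times as much on average (log2 fold change 1.33, SE 0.18, limma, adjusted p = 0.000129). Its partners SF3A1 and SF3A3 fell, with 20.5, 18 and 29.1 TPM and 38.9, 41.8 and 51.5 TPM in siVCPIP1, against 41, 45.5 and 44.3 TPM and 62.3, 67.1 and 80.6 TPM in siControl (-0.95 and -0.66). SF3A2 was 14.0 to 32.4 times as high as SF3A1 in siVCPIP1 libraries and 3.94 to 5.90 times in siControl.

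SF3B6 (p14), which touches the branch point adenosine, was the most abundant SF3 transcript in siControl and had 74.2, 68.5 and 161 TPM in siVCPIP1, against 265, 331 and 374 TPM in siControl (-1.76). SF3B2, SF3B4 and SF3B3 had log2 fold changes of -0.76, -0.85 and -0.44. Of these, SF3B3 had 37.4, 39.9 and 51.7 TPM in siVCPIP1 and 52.1, 58.1 and 65.1 TPM in siControl, so that the highest siVCPIP1 value almost reached the lowest siControl value. The SF3B3 call (limma, adjusted p = 0.0374) was lost without siVCPIP1 replicate 1 or 2 or siControl replicate 2 or 3 (adjusted p from 0.0954 to 0.16).

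**Figure D3:**
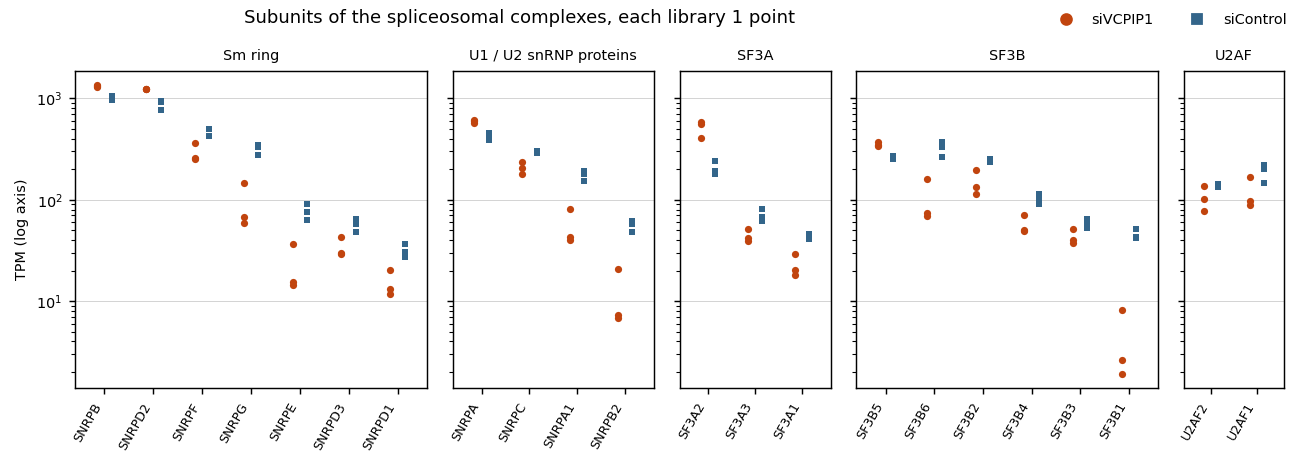
TPM on a log axis of the 7 Sm ring proteins, the U1 and U2 snRNP proteins, SF3A, SF3B and U2AF, with 1 point per library, siVCPIP1 (circles) left of siControl (squares). SNRPB, SNRPD2, SNRPA, SF3A2 and SF3B5 lie higher in siVCPIP1. Rare subunits such as SNRPD1, SNRPB2 and SF3B1 lie lower, as do abundant ones such as SNRPF and SF3B6. The span is wider within the Sm ring, SF3A and SF3B, whereas the U2AF points of the groups overlap.

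Of the 11 tested SNRP genes, 8 fell and 3 rose, with a median log2 fold change of -0.72, where 66.0% of all tested genes fell and 15.0% rose. Median-of-ratios scaling put 6 of the 11 higher and 3 lower, against 42.3% and 42.7% of all genes. The 3 that rose were SNRPB, SNRPD2 and SNRPA, which had the 3 highest mean TPM of the 58 genes in siVCPIP1, although SF3A2 exceeded SNRPA in replicate 2. SNRPB encodes the Sm proteins B and B′ and had 1296, 1319 and 1355 TPM in siVCPIP1, against 1047, 962 and 971 TPM in siControl (0.41, SE 0.10, limma, adjusted p = 0.00505). SNRPD2, another Sm protein, had 1249.8, 1249.6 and 1230.0 TPM in siVCPIP1, against 913, 764 and 949 TPM in siControl (0.51, SE 0.12, adjusted p = 0.00349). In both genes all siVCPIP1 libraries, replicate 3 included, lay close together and above every control.

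The Sm ring is a heptamer of 1 copy each of SmB, D1, D2, D3, E, F and G that encircles the U1, U2, U4 and U5 RNAs. Of its 7 genes, 5 fell and 2 rose, against 66.0% and 15.0% of all genes, but median-of-ratios scaling left 2 lower and 4 higher, and correcting for GC and length 0 lower and 5 higher. SNRPG and SNRPE fell most, with 58.8, 67.4 and 148 TPM and 14.4, 15.5 and 36.2 TPM in siVCPIP1, against 274, 333 and 347 TPM and 63.3, 75.8 and 90.9 TPM in siControl (-1.91 and -1.86). SNRPD1, the rarest in every library, had 11.8, 13.1 and 20.1 TPM in siVCPIP1 and 27.4, 30.6 and 36.9 TPM in siControl (-1.05). SNRPD3 and SNRPF averaged 34 ± 7.91 TPM and 291 ± 63.5 TPM in siVCPIP1, against 56.3 ± 8.4 TPM and 472 ± 42.9 TPM in siControl (SD, n = 3). From the highest Sm gene, SNRPB, to the lowest, SNRPD1, the span was 67.3- to 110-fold in siVCPIP1 libraries and 26.3- to 38.1-fold in siControl.

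The proteins particular to the U1 and U2 snRNPs moved in different directions. SNRPA, the A protein of the U1 snRNP, which binds a stem-loop of U1 RNA, rose, with 616, 576 and 594 TPM in siVCPIP1, against 456, 396 and 387 TPM in siControl (0.53, SE 0.12, limma, adjusted p = 0.0024). SNRPB2, its close relative in the U2 snRNP (protein B″), fell most in the family, with 7.26, 6.81 and 20.9 TPM in siVCPIP1, against 48, 61.4 and 58 TPM in siControl (-2.33, SE 0.37, adjusted p = 0.000344). SNRPA1, the protein A′ that pairs with B″ on U2 RNA, had 39.8, 42.6 and 81.5 TPM in siVCPIP1 and 152, 178 and 192 TPM in siControl (-1.72). The ratio of SNRPA to SNRPB2 was 28.5 to 84.9 in siVCPIP1 libraries, against 6.45 to 9.50 in siControl. SNRPC, the C protein of the U1 snRNP, which helps it to bind the 5′ splice site, had 181, 204 and 238 TPM in siVCPIP1 and 287, 304 and 291 TPM in siControl (-0.51). SNRPN, a neuronal relative of SNRPB, was not tested, with at most 0.37 TPM in any library.

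The coding sequences of these contrasting genes differ in base composition, and a stretch of 60 bases from the middle of each is shown for 3 that rose (SNRPA, SNRPD2 and SF3A2) and 3 that fell (SNRPB2, SNRPD1 and HNRNPA2B1) (G and C in capitals; GRCh38, transcripts of GENCODE 29, 5′ to 3′ on the coding strand).
SNRPA: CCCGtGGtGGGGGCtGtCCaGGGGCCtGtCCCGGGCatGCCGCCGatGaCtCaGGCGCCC
SNRPB2: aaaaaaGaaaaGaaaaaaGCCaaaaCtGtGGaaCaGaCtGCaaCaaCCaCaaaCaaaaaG
SNRPD2: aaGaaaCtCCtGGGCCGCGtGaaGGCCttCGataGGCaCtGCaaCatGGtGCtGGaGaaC
SNRPD1: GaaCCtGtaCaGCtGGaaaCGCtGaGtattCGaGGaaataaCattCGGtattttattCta
SF3A2: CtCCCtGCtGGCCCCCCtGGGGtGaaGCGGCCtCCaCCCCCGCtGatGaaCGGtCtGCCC
HNRNPA2B1: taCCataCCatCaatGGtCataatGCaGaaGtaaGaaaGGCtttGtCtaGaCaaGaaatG
G and C made up 76.7%, 33.3%, 56.7%, 38.3%, 73.3% and 36.7% of these stretches, and 58.4%, 39.4%, 54.6%, 43.9%, 67.6% and 45.3% of the whole coding sequences, in the same order. In the SNRPB2 stretch most bases are A, and in the SNRPA and SF3A2 stretches G and C run together. These genes were picked by the direction of their change, and coding GC content did not separate rises from falls. SRSF2, SRSF8 and HNRNPA0 fell with 66.5%, 65.5% and 64.3% G and C in their coding sequences. Across the 54 tested genes, Pearson's r between log2 fold change and coding GC content was 0.36. The genes span chr19:40750637-40765389 (plus strand) for SNRPA, chr20:16729961-16742563 (plus strand) for SNRPB2, chr19:45687454-45692569 (minus strand) for SNRPD2, chr18:21612267-21633524 (plus strand) for SNRPD1, chr19:2236504-2248679 (plus strand) for SF3A2 and chr7:26173057-26201529 (minus strand) for HNRNPA2B1.

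Over the 54 tested genes, the change varied with base composition and transcript length. The 5 genes that rose had a transcript GC content of 54.9% to 66.6% and a length of 693 to 1963 nt, with 3′ untranslated regions of 99 to 356 nt. The 48 that fell had a GC content of 35.4% to 56.3%, a median length of 2724.5 nt and a median 3′ untranslated region of 896.5 nt. Across the 54 genes, which share the same 6 libraries, Pearson's r between log2 fold change and GC content was 0.55 (Spearman's rho 0.48), against r = 0.72 (rho 0.74) across all 10915 tested genes with a GC value. The correlation with log2 length was r = -0.34 in the 54 and r = -0.30 in all genes.

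All 34 genes with a GC content under 50% fell, in bins where 97.9% (under 40%), 97.0% (40% to 45%) and 89.1% (45% to 50%) of all tested genes fell. From 50% to 55% GC, 10 of 11 fell, where 66.6% of all genes did. The median of the 10 members from 45% to 50% GC was -2.87, against -1.61 for all genes in that bin. Several hnRNP genes with a moderate GC content fell further than the median gene of that composition, among them HNRNPH1 (51.6% GC, -3.96), HNRNPM (53.2%, -3.52) and HNRNPL (55.3%, -2.50), where the median of all genes was -0.82 from 50% to 55% and -0.18 from 55% to 60%. SNRPF fell less, with a GC content of 35.4%, the lowest of the 54, and a log2 fold change of -0.71, against a median of -2.23 for genes under 40%.

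**Figure D4:**
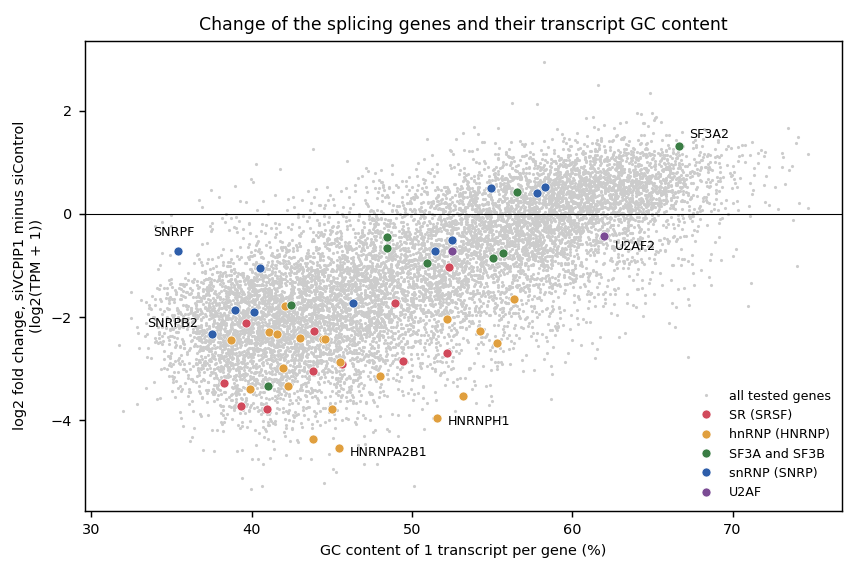
Log2 fold change, siVCPIP1 minus siControl (vertical axis), against the GC content of 1 transcript per gene (horizontal axis, %) for all tested genes with a GC value (grey) and the splicing genes by family (colours). SR and hnRNP genes lie in the lower left part and SF3A2 at the upper right, along the slope of the grey cloud, with HNRNPA2B1 and HNRNPH1 toward its lower edge and SNRPF above it at the left.

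No SR or hnRNP gene was called higher under any of the 3 other ways of scaling, although SRSF9 (0.35, median of ratios), SRSF6 (0.13, GC and length) and HNRNPH2 (0.57, GC and length) came to lie above 0, whereas many snRNP and SF3 genes changed direction. Median-of-ratios scaling and quantile normalization align the centres of the libraries, which brought the median of all 10966 genes to -0.02 and 0.04. After median-of-ratios scaling, which called 42.7% of all genes lower and 42.3% higher, 34 of the 54 were lower and 15 higher. Of these, 10 of 11 SR and 20 of 21 hnRNP genes were lower and none was higher, whereas 7 of 9 SF3 genes, 6 of 11 SNRP genes and both U2AF genes were higher. After quantile normalization, which called 38.8% of all genes lower and 42.2% higher, 41 of the 54 were lower and 5 higher, and all 11 SR and 20 of 21 hnRNP genes were lower.

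After each library's trend on GC content and length was removed, 31.7% of the 10915 genes with a GC value were called lower and 37.2% higher. Of the 54, 26 were then lower and 10 higher, with a median of -0.35 against 0.07 over all genes. The SR genes kept 8 of 11 lower and the hnRNP genes 15 of 21, with medians of -0.93 and -0.96 and no gene called higher. Among the largest remaining falls were HNRNPH1 (-2.74, limma, adjusted p = 8.62e-05), HNRNPM (-2.64, adjusted p = 0.000225), HNRNPA2B1 (-2.61, adjusted p = 0.000199) and HNRNPR (-2.19, adjusted p = 0.000114). HNRNPA1 and HNRNPC were no longer called (-0.32 and -0.32, adjusted p = 0.219 and 0.0571).

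The SNRP genes had 6 of 11 higher and 0 lower after that correction, with a median of 0.29. SNRPF stood at 1.77 (limma, adjusted p = 5.99e-05) and SNRPD1 at 1.10 (adjusted p = 0.000542), while the rise of SNRPB was no longer called (0.16, adjusted p = 0.099). Among the SF3 genes 4 were higher and 2 lower. SF3A2 kept a rise of 0.79 (adjusted p = 0.00114) and SF3B1 a log2 fold change of -1.31 (adjusted p = 0.00217), and SF3B5 lay at 0.01, not called.

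**Figure D5:**
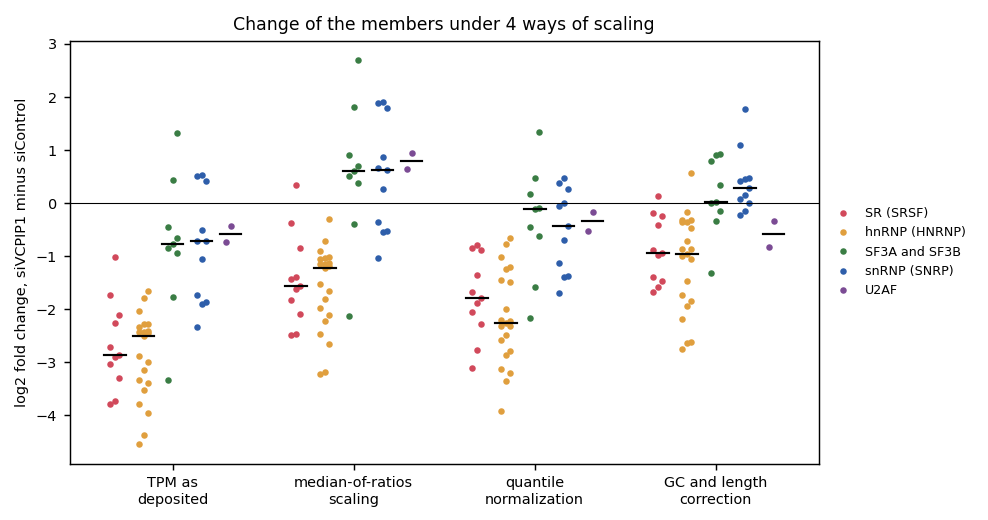
Log2 fold change, siVCPIP1 minus siControl (vertical axis), of each tested gene under 4 ways of scaling (horizontal axis), with 1 point per gene coloured by family and a black bar at the family median. The SR and hnRNP medians are below 0 in all 4, from -2.86 and -2.50 with TPM as deposited to -0.93 and -0.96 once GC and length are corrected for, whereas the SNRP and SF3 medians cross 0.

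Other genes of the splicing pathway were taken from a list of 135 symbols in 10 classes, of which 134 were in the table and all 134 were tested. Of these, 105 (78.4%) fell and 15 (11.2%) rose, against 66.0% and 15.0% of all tested genes, with a median log2 fold change of -1.82, between that of all genes (-1.12) and that of the 54 (-2.27). Several classes lay near or under these background shares, and their directions depended on the scaling. Of 16 tri-snRNP and U5 genes, 11 fell and SART1 rose, with a median of -0.73, but 3 were lower and 9 higher under median-of-ratios scaling, and 3 lower and 8 higher under GC and length correction. PRPF8, the scaffold of the catalytic core, averaged 69.1 ± 13.8 TPM in siVCPIP1 and 110.0 ± 11.9 TPM in siControl (-0.68, but called higher at 0.68 and 0.45 under these 2 settings), and SNRNP27 fell furthest of the class (-2.80). Of 8 U1 and early factors, 7 fell and SNRNP70 (U1-70K) rose, with 407, 369.5 and 386 TPM in siVCPIP1 against 269, 231 and 260.1 TPM in siControl (0.61). With GC and length corrected for, 3 of the 8 were lower and 0 higher, SNRNP70 lying at 0.04. Of the U1 proteins, SNRNP70 and SNRPA rose and SNRPC fell, but SNRPC was higher under median-of-ratios scaling (0.87), and after GC and length correction SNRPA alone of these 3 was called (0.42).

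Of 12 factors associated with U2, 9 fell and PUF60, a U2AF-related factor, rose (0.63), and under either median-of-ratios scaling or GC and length correction 7 were lower and 4 higher. The helicase DHX15 fell most of these (-3.93). The LSm proteins form the ring of U6 RNA, and of 7, LSM3, LSM5, LSM6 and LSM8 fell, LSM4 and LSM7 rose (0.32 and 0.73) and LSM2 was not called, but all 4 falls lost their call with GC and length corrected for, where 0 were lower and 2 (LSM2 and LSM8) higher and LSM4 and LSM7 lay at 0.18 and -0.03, not called. LSM7 averaged 534 ± 73.2 TPM in siVCPIP1 and 320.4 ± 30.4 TPM in siControl, and LSM6, the furthest fall, 5.19 ± 3.6 TPM in siVCPIP1 and 27.7 ± 3.93 TPM in siControl (SD, n = 3). Of 23 genes of the Prp19 complex and the catalytic steps, 18 fell, PRPF18 the most (-3.26), and XAB2, BUD31 and DDX41 rose, XAB2 the most (0.81), whereas GC and length correction left 4 lower and 8 higher. The minor spliceosome, which removes a rare class of introns, had 4 of 8 lower, ZCRB1 the most (-3.25), and ZMAT5, ZRSR2 and SNRNP25 higher, ZMAT5 the most (0.99), and 2 were lower and 5 higher with GC and length corrected for.

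Of 18 SR-related proteins and SR kinases, 15 fell and SCAF1 rose (0.68), with 13 lower and 3 higher under GC and length correction. PNN, a nuclear speckle protein, had 1.46, 1.68 and 4.98 TPM in siVCPIP1 against 44.9, 49.3 and 35.2 TPM in siControl (-3.68). The SR kinase genes SRPK1 and SRPK2 had log2 fold changes of -2.39 and -2.51. Of 28 other regulators, 25 fell and RALY and RBM10 rose, with 16 lower and 3 higher under GC and length correction. PCBP1, an intronless poly(C)-binding protein gene, fell most (12, 9.15 and 55.5 TPM in siVCPIP1, 294, 374 and 281 TPM in siControl, -4.01), and RALY, a relative of HNRNPC, had 599, 588 and 515 TPM in siVCPIP1 against 409, 353 and 321 TPM in siControl (0.65, not called under that correction). All 5 exon junction complex genes fell, from -0.82 for RBM8A to -2.55 for MAGOH, but 2 were lower and 1 higher under median-of-ratios scaling and 1 lower and 1 higher under GC and length correction. The SMN complex, which loads the Sm ring onto RNA, had 7 of 9 lower, STRAP the most (-3.44), and GEMIN7 higher (0.74), and 5 lower and 3 higher under GC and length correction. Of the 134, 54 were lower and 37 higher after GC and length correction, and 71 lower and 40 higher with median-of-ratios scaling.

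Some values carry an uncertainty of identity. HNRNPA1L2, a retrocopy of HNRNPA1, was listed at 7.32, 6.48 and 69.6 TPM in siVCPIP1 and 212, 210.1 and 253 TPM in siControl (-3.78), and reads of the pair may have been split between them. The same holds for HNRNPC and its copies HNRNPCL1 and HNRNPCL4, for SNRPB and SNRPN, for HNRNPH1 and HNRNPH2, and for U2AF1, which has a near-identical copy in the assembly. Exons of 13 of the 58 genes overlap those of a listed gene on the opposite strand in GENCODE 29. Among them are SF3A2 (with PLEKHJ1), SNRPA (with C19orf54) and SNRPD2 (with QPCTL), which rose, and HNRNPA2B1 (with CBX3), which fell. No source used here gives the strand setting of the counting, so reads of such partners cannot be told apart. On the same strand, exons of HNRNPH2 overlap RPL36A-HNRNPH2 and those of SNRPD3 overlap GGT1, which a strand setting would not separate.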

How the data were processed

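Total RNA from AsPC-1 cells was sequenced as 6 libraries on the MGISEQ-2000RS, per the labels' protocols. The authors deposited 1 table of TPM per gene symbol, per the file headers, rounded to 2 decimals, and the submitters' processing notes name the assembly GRCh38.p13. Which aligner, counter and annotation were used is not given in the sources used here. Read depth cannot be had from TPM, so counting intervals are left out.

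All 6 columns were used. The 10966 genes that averaged 1 TPM or more were tested on log2(TPM + 1), a scale that understates the change of low genes, by R 4.3.3 and limma 3.58.1 (a two-sided moderated test with a mean-variance trend and no covariate). P-values were adjusted over all of them by Benjamini-Hochberg at a threshold of 0.05. For each gene, 1 coding transcript of GENCODE 29 gave its GC content and length (99.5% of tested genes had one). For the corrected fit, each library's natural-spline trend on GC (5 degrees of freedom), log2 length (3) and their product was removed. Both fits were run on simulated data for siVCPIP1 against siControl over 10915 genes. With no GC trend added, the uncorrected fit recovered 44% of genes changed by 1 and 87% of those changed by 2 on the log2 scale. It made 3 false calls among 10715 unchanged genes. With a GC trend added, the corrected fit recovered 41% and 92%, with 5 false calls. The added trend was a straight line in GC content, which the spline removes by its form, so other trends were not tried. Few genes were changed, equally up and down, and the noise was independent between genes and libraries. The measured libraries differ in these respects, so the numbers of false calls do not carry over to them. The uncorrected fit was not tested on simulated data with a GC trend.

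The members, the list of other splicing genes and the alternatives were chosen with earlier results of these data known. Values per library were given by rule for the most abundant, the 3 lowest and the 3 highest changes in each family and for set pairs of relatives, and the lowest and highest of each class of other genes are named, except for 1 gene that is not reported here. Other genes given with values were added after their values were seen.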

Additional observations from a re-analysis of the deposited data

How the results depend on the processing

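A pseudocount of 0.1 TPM, the absence of a filter and the replicate block left every call of the 54 genes as it was, and without the filter HNRNPCL1 and HNRNPCL4 were lower too. Counts of all genes moved with scaling, with 4677 lower and 4641 higher under median-of-ratios scaling, 4258 lower and 4625 higher under quantile normalization, and 3463 lower and 4063 higher under GC and length correction. Members higher numbered 15 after median-of-ratios scaling and 10 after GC and length correction, which left 26 lower. Of the other splicing genes, 40, 30 and 37 were higher under these 3 settings, and 54 were lower after GC and length correction. VCPIP1 turned to 0.27 (limma, adjusted p = 0.0651) after that correction.

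After median-of-ratios scaling, SF3A1, SF3A3, SF3B2, SF3B3 and SF3B4 turned to 0.38, 0.70, 0.61, 0.91 and 0.51, SNRPC, SNRPD1, SNRPD3 and SNRPF to 0.87, 0.26, 0.62 and 0.66, and SRSF9, U2AF1 and U2AF2 to 0.35, 0.64 and 0.94. After quantile normalization SF3B3 turned to 0.18. After GC and length correction, SF3A1, SF3A3, SF3B3 and SF3B6 turned to 0.35, 0.93, 0.91 and 0.017, SNRPB2, SNRPD1, SNRPD3, SNRPE, SNRPF and SNRPG to 0.083, 1.10, 0.29, 0.47, 1.77 and 0.0050, and HNRNPH2 and SRSF6 to 0.57 and 0.13. The cause of these turns was not tested.

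Leaving out 1 library at a time gave 6532 to 7853 lower and 1237 to 1845 higher genes, 46 to 49 lower and 5 higher members, and 99 to 111 lower and 9 to 17 higher other splicing genes (9 without siControl replicate 2), with VCPIP1 from -1.78 to -1.62. A pseudocount of 0.1 in place of 1 TPM moved VCPIP1 to -3.45. The titles number the replicates of both groups 1 to 3. Of the same-numbered pairs, 1 and 3 deviated together and pair 2 did not (r = 0.53, 0.16 and -0.27). Replicate 1 of siVCPIP1 correlated best with its own number, but not every library did. With 3 libraries a group, these values cannot show whether the replicates were paired. With the replicate block, 7085 genes were lower and 1586 higher, members stayed at 48 and 5, other splicing genes numbered 103 and 15, and VCPIP1 stayed at -1.68. The read depth is unknown, so what it limits among low values cannot be stated.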
